A study of Mus musculus with 12 samples.

Results

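Antioxidant enzymes and metallothioneins were followed in heart muscle of control mice and of mdx mice, a model of Duchenne muscular dystrophy whose dystrophin gene, Dmd, carries an inherited mutation. The set held 10 genes chosen by name, namely Sod1, Sod2, Sod3, Cat, Gpx1, Gpx3, Mt1, Mt2, Hmox1 and Prdx1. A probe set, the group of short probes that reads a transcript on an Affymetrix array, was used only if its annotation named a single gene. This left 15 probe sets of 9 genes among the 22690 on the array. Prdx1, a peroxiredoxin gene, was left without a value because each of its 5 probe sets was also assigned to Gm21399. Total RNA was measured on 12 arrays. Each genotype was sampled at ages of 8 weeks and 10.5 months, with 3 arrays for every one of these 4 groups. The labels do not describe the controls further and give no strain, sex, pooling or array batch, so a batch that ran with age or genotype cannot be told apart from it, and the spread between the 3 arrays of a group may be in part technical.

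Superoxide, formed mainly by mitochondria and by NADPH oxidases, is turned into hydrogen peroxide by the superoxide dismutases, of which Sod1 encodes the cytosolic copper and zinc enzyme, Sod2 the mitochondrial manganese enzyme and Sod3 the secreted extracellular enzyme. Hydrogen peroxide is then removed by catalase (Cat), by the selenium-containing glutathione peroxidases, here the intracellular Gpx1 and the secreted Gpx3, and by peroxiredoxins. Metallothioneins are small cysteine-rich proteins that bind zinc and copper and react with oxidants, and their genes are induced by metals, glucocorticoids and other stress. Hmox1 encodes the inducible heme oxygenase, which breaks down heme and is a target of the oxidant-responsive factor Nrf2.

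Signals are given on a scale on which the trimmed mean of each array was 500, and changes as log2 values of the signal plus 32, with the standard error of a limma fit to all 12 arrays. A change was called at an adjusted p below 0.05 over the 14932 probe sets that reached a mean signal of 100. Of the 15 probe sets 14 reached it. The exception was 1451612_at of Mt1, with signals between 8.5 and 108.7. A fold change of a dim probe set is understated on this scale, and in whole tissue fewer cells of a type and less RNA per cell cannot be told apart.

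Dmd had signals of 607 to 839 on the 6 control arrays and 159 to 286 on the 6 mdx arrays. Extraocular muscle appears among the keywords although the titles say heart, but 11 of 11 ventricular markers had mean signals of 6703 to 34010, and 10 skeletal muscle markers other than Ckm, which heart also expresses, had means over the 12 arrays of 15.8 to 80.3. The highest signal of these on any array was 189, for Myh2 on mdx replicate 1 at 8 weeks. The range of signals was wider on 4 arrays than on the others, with a 99th percentile of 13583 to 17707 against at most 10932. These wide arrays were control replicate 2 and mdx replicates 1 and 2 at 8 weeks, and mdx replicate 3 at 10.5 months.

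The largest and the only called change among the members was a fall of Sod1 between the ages, read by its brighter probe set, while no member was called between mdx and control hearts at either age. Probe set 1451124_at gave 6450, 9247 and 6279 in control hearts at 8 weeks and 2305, 2952 and 3474 in control hearts at 10.5 months. In mdx hearts it gave 8488, 9268 and 6308 at 8 weeks and 2987, 2899 and 3525 at 10.5 months. All 6 young arrays thus lay above all 6 older ones, whatever the genotype. The fall was 2.49-fold in controls (log2 -1.32 ± 0.21, 95% interval -1.77 to -0.87, adjusted p = 0.0230) and 2.52-fold in mdx hearts (-1.33 ± 0.21, interval -1.78 to -0.88, adjusted p = 0.00317). It was of like size in both genotypes, with a difference of -0.01 ± 0.29 (interval -0.65 to 0.62, adjusted p = 0.992).

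Few probe sets were called with age in control hearts, 22 (0.147%), 14 higher and 8 lower. By limma 12.2% of all tested had an unadjusted p below 0.05, so few calls do not mean that little changed. The fall of 1451124_at was the 2nd largest among the called ones and the 16th largest among all tested. In mdx hearts 1706 were called (11.4%), and the fall of 1451124_at was the 90th largest among the called ones and the 101st largest among all tested. Only 7 of the 14932 probe sets (0.0469%) were called lower with age in both genotypes, and that of Sod1 was among them. In mdx hearts its call held in all 12 fits that left out an array (-1.22 to -1.495, adjusted p at most 0.0172) and in 9 other alternatives. In controls the size was as stable (-1.14 to -1.46 over the 12 fits), but the call was lost without control replicate 1 or 2 at 8 weeks (adjusted p = 0.0678 and 0.0913), without control replicate 1 or 2 at 10.5 months (0.116 and 0.108), with no filter on dim probe sets (0.0501) and when only control arrays were fitted (0.0956).

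The other Sod1 probe set did not follow. Probe set 1435304_at gave 283, 194 and 212 in control hearts at 8 weeks and 271, 265 and 281 at 10.5 months. In mdx hearts it gave 231, 188 and 181 at 8 weeks and 194, 214 and 227 at 10.5 months. The ages overlapped in both genotypes, and the values were slightly positive (0.23 ± 0.16 in controls, interval -0.10 to 0.57, adjusted p = 0.592; 0.07 ± 0.16 in mdx hearts, interval -0.26 to 0.41, adjusted p = 0.788). Both intervals exclude a fall of the size seen with the brighter probe set. Within each array the log2 ratio of the brighter to the dimmer probe set went from 4.80 ± 0.51 (SD, n = 3) to 3.25 ± 0.28 with age in controls and from 5.10 ± 0.27 to 3.70 ± 0.11 in mdx hearts, with no overlap between ages. The sequences that the probe sets target were not analysed here, and which of them reads the Sod1 messenger RNA as a whole was not tested.

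**Figure D1:**
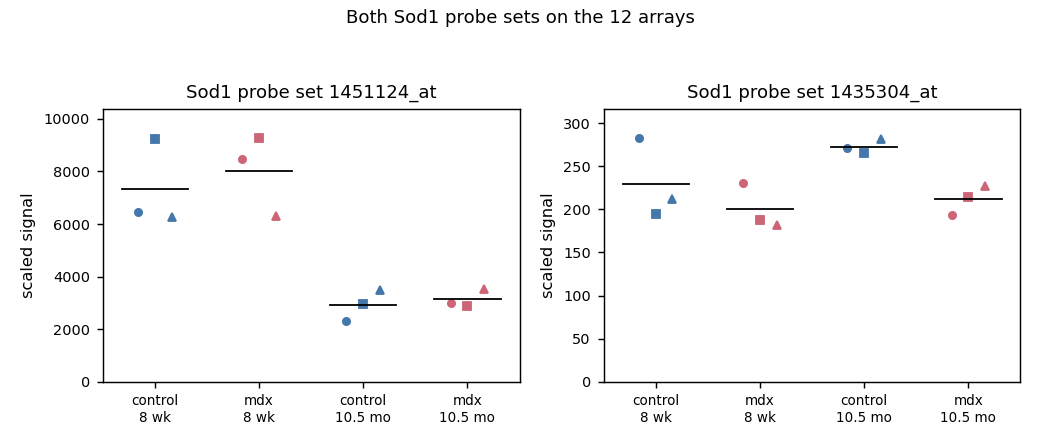
Scaled signal (linear axis from 0) of both Sod1 probe sets in control (blue) and mdx (red) hearts at 8 weeks and 10.5 months. Circles, squares and triangles are replicates 1, 2 and 3, and lines are group means. On the left the 6 arrays at 8 weeks sit between 6279 and 9268 and the 6 older ones between 2305 and 3525, while on the right the ages overlap.

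The summed signal of granulocyte markers (9 listed, 7 above the filter, with Camp and Elane below it) also differed with age in both genotypes. It was 2120 to 3099 in control hearts at 8 weeks and 852 to 1386 at 10.5 months, and 1255 to 2046 and 1015 to 1187 in mdx hearts. The brightest marker, S100a9, did not overlap between ages in controls (687 to 873 against 60.9 to 337). In mdx hearts it did (153 to 500 against 110 to 215), and Csf3r had a higher mean in older than in young controls. The part of these markers in the Sod1 values was not tested. Arrays of wide signal range were 3 of the 6 young and 1 of the 6 older ones. After quantile normalization or under a block for signal range, the fall of Sod1 stayed between -1.18 and -1.32 in controls and between -1.19 and -1.45 in mdx hearts, as it did in every alternative that left no array out.

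The rule for naming genes of like pattern took the member of widest range, Mt2, and the same search was made for Sod1 after its values were seen. The genes closest to 1451124_at, by the root mean square difference of centred log2 levels over 12 arrays, were Cngb3 (0.32), Ddc (0.33), Gnl2 (0.36), Egfbp2 (0.36) and Pnpla2 (0.36), against a median of 0.75 over 8851 genes. Cngb3, Ddc and Egfbp2 were dim, with group means of at most 239. Pnpla2, which encodes a triglyceride lipase, went from a mean of 4974 to 3486 in controls and from 6519 to 3094 in mdx hearts.

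Between mdx and control hearts the Sod1 probe sets gave small values of opposite sign, and that of the brighter turned slightly negative at both ages under a block for signal range. The brighter was at 0.13 ± 0.21 at 8 weeks (adjusted p = 0.779) and 0.12 ± 0.21 at 10.5 months (adjusted p = 0.925). The dimmer was at -0.17 ± 0.16 (adjusted p = 0.620) and -0.33 ± 0.16 (adjusted p = 0.676). At 10.5 months the 3 mdx signals of the dimmer probe set (194 to 227) lay below the 3 control signals (265 to 281).

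Sod2 was read by 3 probe sets, and 2 bright ones and a dim one differed. The bright 1417193_at gave 9058, 12353 and 9303 in control and 17144, 14023 and 8782 in mdx hearts at 8 weeks. The groups overlapped, and the highest signals were those of the 3 wide arrays. The change was 0.34 ± 0.21 (adjusted p = 0.432), and it was 0.09 to 0.45 over the alternatives that kept all arrays. At 10.5 months the same probe set was nearly level, with control signals of 9169, 10065 and 9327 and mdx signals of 10136, 10347 and 10386 (0.11 ± 0.21, adjusted p = 0.934). The other bright one, 1448610_a_at, ran from 7806 to 12055 at 8 weeks and from 7051 to 10958 at 10.5 months, with changes of 0.07 ± 0.19 and 0.20 ± 0.19 (adjusted p = 0.884 and 0.853).

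The dim Sod2 probe set 1417194_at came nearest to a call between genotypes. It gave 476, 466 and 550 in control and 252, 378 and 325 in mdx hearts at 8 weeks, with no overlap. The change was -0.61 ± 0.17 (interval -0.97 to -0.24, adjusted p = 0.0818), it was negative in all 21 alternatives (-0.47 to -0.73), and it passed in none. At 10.5 months the groups overlapped (419 to 508 against 340.5 to 460.5; -0.22 ± 0.17, adjusted p = 0.807). The bright probe sets of the same gene had positive values in both comparisons, which turned negative for 1448610_a_at at 8 weeks (-0.13) and for 1417193_at at 10.5 months (-0.11) after quantile normalization, so the 3 did not give a single direction for Sod2. With age no Sod2 probe set was called; in mdx hearts 1417193_at was at -0.32 ± 0.21 (adjusted p = 0.339), and it passed only without mdx replicate 3 at 8 weeks (-0.59, adjusted p = 0.0429).

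Sod3 varied little. Its probe set 1417633_at gave 753, 645 and 880 in control and 689, 779 and 670.1 in mdx hearts at 8 weeks (-0.08 ± 0.16, adjusted p = 0.837). At 10.5 months it gave 845, 837 and 777 in control and 717, 695 and 532 in mdx hearts, without overlap (-0.33 ± 0.16, adjusted p = 0.675). The second, 1417634_at, overlapped at both ages (0.03 ± 0.20 and -0.10 ± 0.20, adjusted p = 0.950 and 0.937), and its lowest signal, 202, was on the wide mdx array at 10.5 months.

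Both catalase probe sets were lowest relative to controls in older mdx hearts, and neither was called. At 10.5 months 1416430_at gave 3464, 2878 and 3341 in control and 3074, 2619.85 and 2167 in mdx hearts, and 1416429_a_at gave 3394, 2750 and 4372 in control and 2045, 2826 and 2064 in mdx hearts. The groups overlapped in each. The changes were -0.31 ± 0.18 (adjusted p = 0.736) and -0.58 ± 0.25 (adjusted p = 0.666). At 8 weeks the probe sets had opposite signs (0.26 ± 0.18 and -0.31 ± 0.25, adjusted p = 0.473 and 0.553). In control hearts 1416430_at was higher with age on every array (1926 to 2406 at 8 weeks, 2878 to 3464 at 10.5 months; 0.54 ± 0.18, adjusted p = 0.252), and in mdx hearts it was at -0.02 ± 0.18. The difference of the genotype effect between ages, -0.57 ± 0.25 for this probe set, did not pass (adjusted p = 0.395). The other, 1416429_a_at, overlapped between ages in controls (0.37 ± 0.25, adjusted p = 0.591) and in mdx hearts (0.10 ± 0.25, adjusted p = 0.82). Its difference between ages was -0.27 ± 0.35 (adjusted p = 0.806).

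Glutathione peroxidase genes had 1 probe set each. Gpx1 gave 2130, 2077 and 2567 in control and 2623, 1998 and 1517 in mdx hearts at 8 weeks (-0.17 ± 0.20, adjusted p = 0.706). At 10.5 months it gave 1756, 1991 and 1674 in control and 1841, 2390 and 2475 in mdx hearts (0.29 ± 0.20, adjusted p = 0.779). These groups overlapped at both ages, and older controls lay below young ones (-0.31 ± 0.20, adjusted p = 0.566). Red cells also hold Gpx1 and catalase. Of 13 erythroid markers 7 were on the array and 4 passed the filter (Hba-a1, Hba-a2 and Epb42 did not). The summed signal of the 7 was 1370 to 2331 on 11 arrays and 5730 on control replicate 3 at 8 weeks. That array had the highest Gpx1 signal of its group. Of the 4 above the filter, Alas2 (3811), Bpgm (1241) and Slc4a1 (369) were highest of their group there, and Hbb-b2 (198) was lowest. On the same array Cat 1416430_at was the highest of its group (2406) and Cat 1416429_a_at the lowest (1981). The part of these markers in those values was not tested. Gpx3 ran from 2195 to 3452 at 8 weeks and from 1954 to 2869 at 10.5 months, with changes in mdx hearts of 0.24 ± 0.17 and 0.14 ± 0.17 (adjusted p = 0.502 and 0.887).

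The metallothionein genes Mt1 and Mt2 had the highest signal of their series on a single young mdx array. These genes are neighbours in the mouse genome, with no annotated gene between them, and metals act on them through metal response elements bound by the factor Mtf1. The 250 bases before the annotated start of each are shown, from RefSeq (GRCm38.p6), because the signals of these genes moved together, with metal response element cores in capitals. They lie at chr8:94178839-94179088 and chr8:94172368-94172617, both on the plus strand.
Mt1: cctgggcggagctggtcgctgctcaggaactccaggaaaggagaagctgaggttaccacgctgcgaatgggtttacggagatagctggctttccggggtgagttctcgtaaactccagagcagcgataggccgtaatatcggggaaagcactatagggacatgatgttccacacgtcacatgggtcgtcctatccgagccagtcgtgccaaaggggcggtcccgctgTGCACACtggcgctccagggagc
Mt2: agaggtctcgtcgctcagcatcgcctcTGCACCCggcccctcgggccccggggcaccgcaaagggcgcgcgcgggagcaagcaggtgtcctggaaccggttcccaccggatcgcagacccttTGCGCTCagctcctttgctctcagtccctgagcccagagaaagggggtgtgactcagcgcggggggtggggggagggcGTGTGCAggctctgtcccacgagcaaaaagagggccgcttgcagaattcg
The core was searched as TGCACNC and TGCGCNC on both strands. The window of Mt1 held 1 match and that of Mt2 held 3, and 21.4% of 32851 windows of this length held at least 1. No other member with a window in the table held a match (Sod1, Sod2, Cat, Gpx1, Gpx3 and Prdx1). The antioxidant response core TGACNNNGC, found in 10.2% of windows, had 1 match each for Mt2, Sod1 and Prdx1. A match is a stretch of letters and not a site shown to be bound, and cores outside these windows were not searched. The windows depend on the annotated starts, and whether these are the starts used in heart was not tested. The counts of 1 and 3 thus do not give the number of elements in either promoter.

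Mt1 was read by 1422557_s_at, whose suffix marks probes that can match more than 1 transcript, so a share of signal from a related metallothionein was not tested. It gave 6689, 7584 and 6020 in control and 19745, 8353 and 6028 in mdx hearts at 8 weeks. Mt2 gave 1738, 1416 and 1020 in control and 5318, 1840 and 1594 in mdx hearts at the same age. On mdx replicate 1 both genes stood far above the other 11 arrays, where Mt1 was at most 8353 and Mt2 at most 1840. That array also had the widest signal range, and after quantile normalization it still had the highest signals (12662 for Mt1 and 4702 for Mt2, against at most 7501 and 1922 elsewhere).

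The genotype change at 8 weeks was 0.57 ± 0.33 for Mt1 and 0.86 ± 0.38 for Mt2, and neither passed (adjusted p = 0.391 and 0.252). Without mdx replicate 1 the values dropped to 0.08 and 0.33 (adjusted p = 0.905 and 0.603), so the size at this age rests on that array. At 10.5 months Mt1 gave 5617, 5269 and 4919 in control and 4505, 6797 and 5064 in mdx hearts (0.03 ± 0.33, adjusted p = 0.987). Mt2 then gave 1167, 744 and 896 in control and 849, 1441 and 1203 in mdx hearts (0.30 ± 0.38, adjusted p = 0.889). Both sets of groups overlapped, and on the older arrays both genes were highest on mdx replicate 2.

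**Figure D2:**
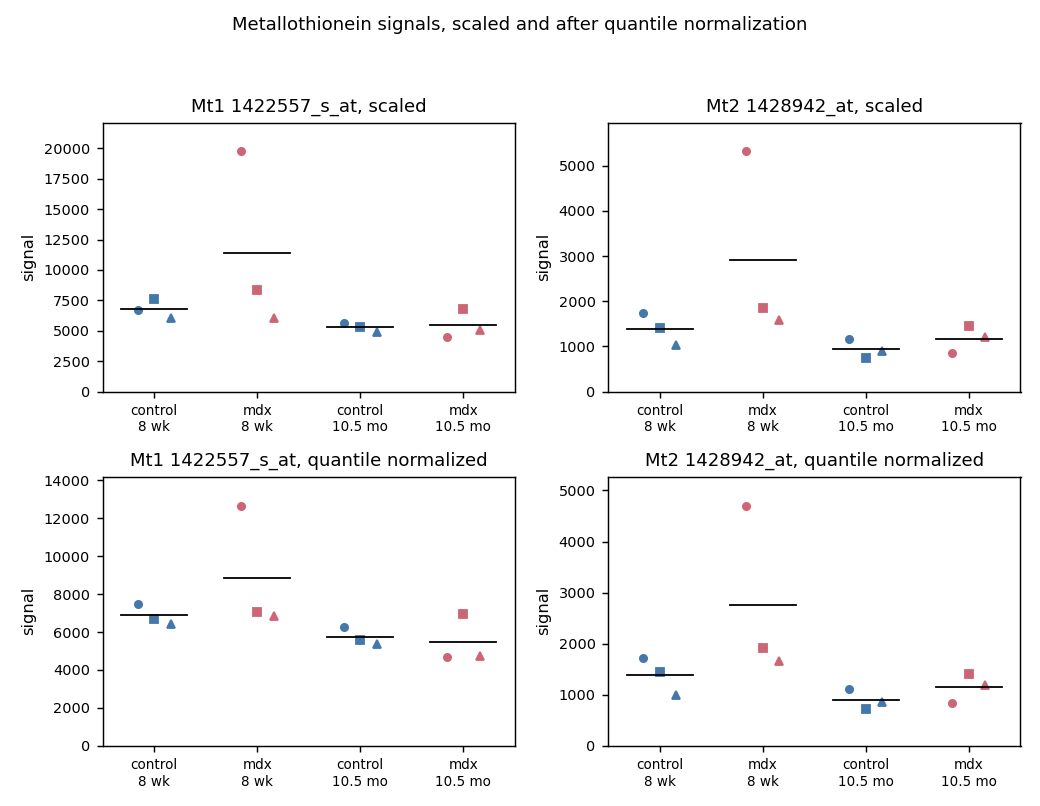
Signal (linear axis from 0) of Mt1 and Mt2 on the 12 arrays, scaled in the upper panels and quantile normalized in the lower ones. Circles, squares and triangles are replicates 1, 2 and 3, lines are group means, and mdx replicate 1 at 8 weeks is highest in each of the 4 panels.

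With age the metallothionein values were negative in both genotypes. In controls they were -0.35 ± 0.33 for Mt1 and -0.55 ± 0.38 for Mt2 (adjusted p = 0.706 and 0.605), and in mdx hearts -0.89 ± 0.33 and -1.12 ± 0.38 (adjusted p = 0.0893 and 0.0701). In mdx hearts Mt2 did not overlap between ages, and Mt1 did. These mdx values passed in 1 of 21 alternatives, the fit without mdx replicate 3 at 8 weeks (-1.25 and -1.44, adjusted p = 0.0199 and 0.0319), and without mdx replicate 1 they were -0.40 and -0.58 (adjusted p = 0.236 and 0.191).

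Mt2 had the widest range of the members (2.79 on the log2 scale over 12 arrays), and of 8851 other genes the one closest to it in pattern was Mt1, with a root mean square difference of 0.26 against a median of 0.75. The next were Wnt3a (0.38), which was dim, Angptl4 (0.41), an inhibitor of lipoprotein lipase, the amino acid transporter gene Slc38a1 (0.41) and the kinase gene Csnk1d (0.41). Of these, Angptl4 was also in the list of glucocorticoid-responsive genes. That list, which includes Mt1 and Mt2, had a median change of -0.18 in mdx hearts at 8 weeks, with 7 of 19 genes positive.

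Hmox1 was near the lower limit of what was tested. Its signals were 156, 15.99 and 159.6 in control and 141, 23.5 and 46.8 in mdx hearts at 8 weeks, and 107, 125 and 99.3 in control and 139, 129 and 80.3 in mdx hearts at 10.5 months. The groups overlapped at both ages (-0.40 ± 0.48 and 0.04 ± 0.48, adjusted p = 0.711 and 0.988). The lowest signals of each young group were on the wide replicate 2. Macrophages express Hmox1 when they clear red cells, and the summed signal of 17 macrophage and monocyte markers, all above the filter, was 16849 to 23447 and 19422 to 25436 in young control and mdx hearts and 16739 to 24476 and 20772 to 33981 in older ones. Single markers went both ways without overlap. Cd163 was lower in mdx hearts at both ages (26.5 to 124 against 155 to 194, then 106 to 127 against 130 to 177). Tyrobp was higher at 8 weeks (786 to 963 against 532 to 749) and Mrc1 at 10.5 months (764 to 1105 against 608 to 757). The part of these markers in the Hmox1 values was not tested.

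**Figure D3:**
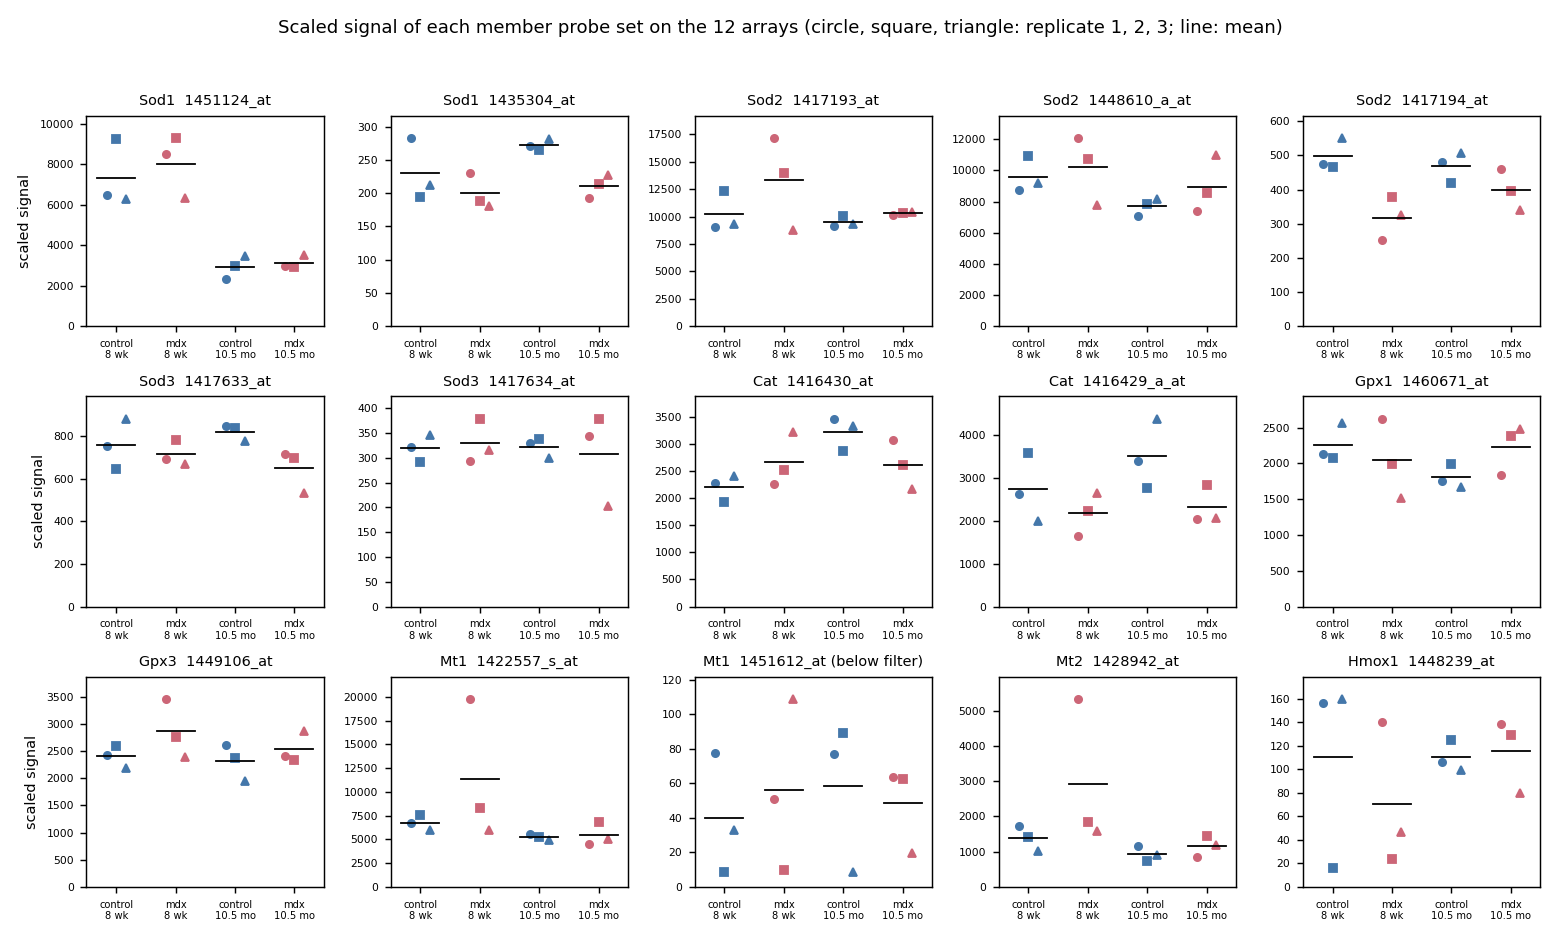
Scaled signal (linear axis from 0) of the 15 probe sets of the members on the 12 arrays, with control hearts in blue and mdx hearts in red. Circles, squares and triangles are replicates 1, 2 and 3, and lines are group means. The first Sod1 panel separates the ages in both genotypes, and the panels of Mt1 1422557_s_at and of Mt2 show the single high young mdx array, which the dim Mt1 1451612_at does not.

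Over the members, 0 of 14 tested probe sets were called in mdx hearts at 8 weeks, where 343 of all tested were (2.3%), and 0 at 10.5 months, where 7 were (0.0469%). By limma 2 and 1 of the 14 had an unadjusted p below 0.05, as did 17.8% and 7.37% of all tested, and 0 were called at either age in any of the 21 alternatives, which all used limma. For the difference between ages 0 were called (23 or 0.154% of all), with 1 at an unadjusted p below 0.05, as had 12.1% of all. The median change over members was 0.05 and 0.03 at the 2 ages, against -0.01 and -0.03 over all probe sets tested, and the median size of change was 0.25 and 0.21 against 0.21 and 0.16. The groups did not overlap for 1 of the 14 at 8 weeks (19.6% of all tested) and 3 at 10.5 months (18.1%), which were the dimmer Sod1 probe set and 1417633_at of Sod3, both lower, and 1417193_at of Sod2, higher. With age they did not overlap for 5 in controls (22.7% of all) and 2 in mdx hearts (30.2%).

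**Figure D4:**
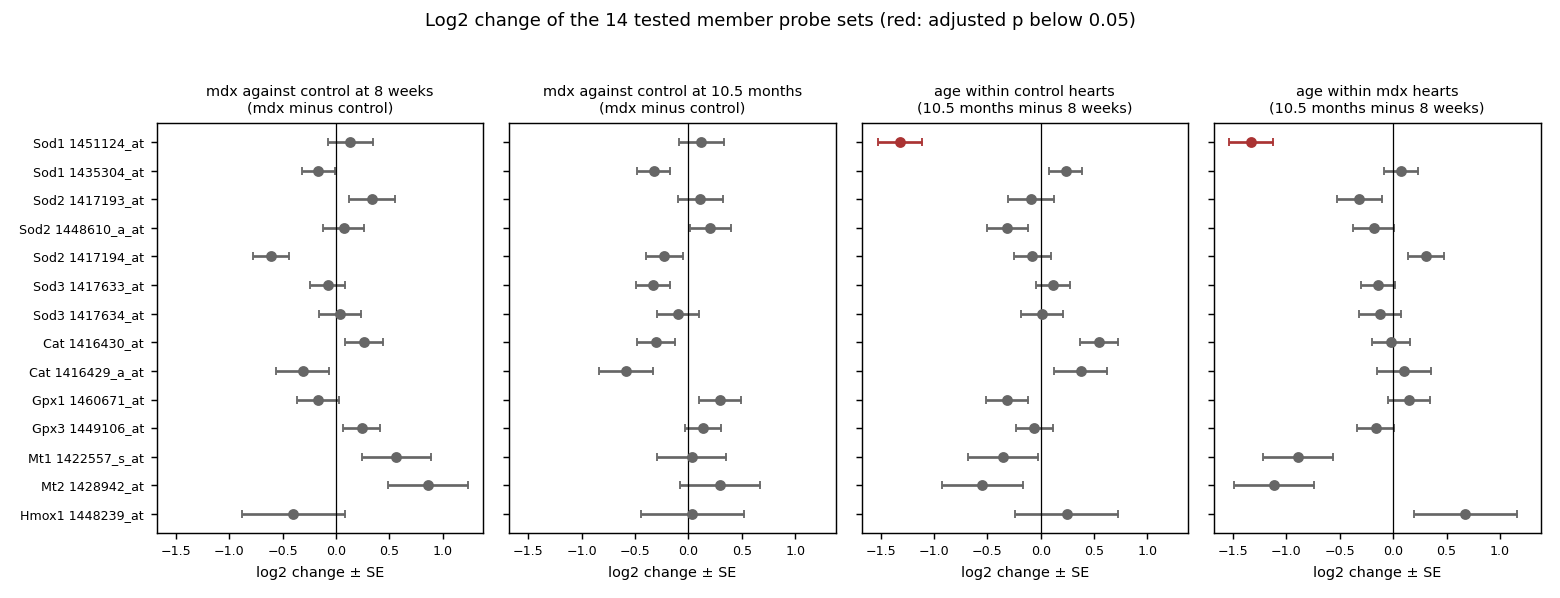
Log2 change with its standard error for the 14 tested probe sets, as mdx minus control at each age and as 10.5 months minus 8 weeks within each genotype. Red points have an adjusted p below 0.05, which holds only for the brighter Sod1 probe set in the comparisons of age.

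The wider antioxidant system was described through 10 lists of genes, each gene by its brightest probe set. These include a list of glucocorticoid-responsive genes, which were not chosen for an antioxidant function. Of 139 listed genes that are no members 101 were tested. In mdx hearts at 8 weeks 0 rose and 3 fell, beside 105 and 85 of 8852 genes tested in all, and at 10.5 months 0 were called, beside 2 and 4. By limma 23 and 11 of the 101 (22.8% and 10.9%) had an unadjusted p below 0.05, beside 17.7% and 7.34% of all genes. In the glucocorticoid list, which includes Mt1 and Mt2, it was 8 and 6 of 19 (42.1% and 31.6%). The median change over the 101 was -0.02 and -0.03, against -0.01 and -0.02 over all genes. At 8 weeks Cbr1, a carbonyl reductase of the Nrf2 list, fell from 598, 574 and 525 to 305, 346 and 277 (-0.81 ± 0.16, adjusted p = 0.0253). Blvrb, a biliverdin reductase gene of the heme and iron list, fell from 84.1, 123 and 246 to 32.3, 50.4 and 20.6 (-1.39 ± 0.30, adjusted p = 0.0344). The third was Klf15 of the glucocorticoid list (adjusted p = 0.0383). The call of Cbr1 held in 16 of 21 alternatives, that of Blvrb in 11 of 20 and that of Klf15 in 9 of 21.

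Lists close to the members held no other call between genotypes. Of 5 genes of the dismutase list, which adds the copper chaperones Ccs and Atox1, 7 of catalase and glutathione peroxidases, 14 of peroxiredoxins and thioredoxins, 4 of glutathione synthesis and 15 glutathione S-transferases, none was called at either age. At 8 weeks and 10.5 months 4 and 1 of these 45 genes had an unadjusted p below 0.05 by limma. The shares were 8.89% and 2.22%, beside 17.7% and 7.34% of all genes. At 8 weeks the groups did not overlap for 6 of the 45 genes, 1 higher and 5 lower in mdx hearts (2.22% and 11.1%, beside 9.53% and 10.5% of all genes). At 10.5 months it was 5 higher and 1 lower (11.1% and 2.22%, beside 7.93% and 10.8%). The 1 higher at 8 weeks was Gpx7 (0.20 ± 0.19, adjusted p = 0.619). The 5 lower were the glutathione reductase gene Gsr (292, 439 and 501 against 537 to 567; -0.44 ± 0.20, adjusted p = 0.266), the mitochondrial thioredoxin reductase gene Txnrd2 (-0.64 ± 0.19, adjusted p = 0.110), Gclm, which encodes the modifier subunit of the enzyme that limits glutathione synthesis (-0.64 ± 0.23, adjusted p = 0.166), and the S-transferase genes Gstz1 and Gstm7 (-0.34 ± 0.18 and -0.20 ± 0.14, adjusted p = 0.344 and 0.500). Gpx7, Gstz1 and Gstm7 were named after their values were seen. Of 9 oxidant source genes 7 had positive values at 8 weeks (median 0.33, with 0 called), beside 48.3% of all genes, and 3 had positive values at 10.5 months (median -0.06). Xdh, the xanthine oxidase gene, was nearest to a call at 8 weeks (0.60 ± 0.19, adjusted p = 0.129).

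Where a list held no call in a comparison, its gene of smallest p was the following. At 8 weeks it was also the copper chaperone gene Atox1 (0.41 ± 0.23, adjusted p = 0.386) and the S-transferase gene Gstk1 (-0.36 ± 0.16, adjusted p = 0.268). At 10.5 months Gpx8 was at 0.50 ± 0.19 and the thioredoxin gene Txn1 at 0.34 ± 0.16 (adjusted p = 0.650 and 0.677). Chac1, Gstp1 and the zinc transporter gene Slc39a14 were at 0.13 ± 0.20, 0.18 ± 0.21 and -0.24 ± 0.17 (adjusted p = 0.910, 0.880 and 0.787). Blvrb, Mafg and Xdh were at 0.69 ± 0.30, -0.54 ± 0.13 and -0.44 ± 0.19 (adjusted p = 0.666, 0.346 and 0.666). The clock gene Per1, of the glucocorticoid list, gave 462, 420 and 474 in control and 232, 121 and 224 in older mdx hearts (-1.15 ± 0.30, adjusted p = 0.367), with no overlap.

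With age, 0 of the 101 genes were called by limma in controls (12 or 11.9% at an unadjusted p below 0.05, beside 11.8% of all genes), beside 9 higher and 5 lower of all 8852, and 13 in mdx hearts, 5 higher and 8 lower, beside 503 and 495. Mafg, a partner of Nrf2 on DNA, fell in mdx hearts from 588, 574 and 573 to 293, 267 and 240.2 (-1.03 ± 0.13, adjusted p = 9.78e-04). Mtf1, the metal-responsive factor that drives metallothionein genes, fell from 398, 287 and 368 to 244, 145 and 205 (-0.75 ± 0.22, adjusted p = 0.0451), a call held in 10 of 21 alternatives. Sesn1, a stress-induced sestrin, fell by 0.47 ± 0.13 (adjusted p = 0.0386, held in 10 of 21), and was at -0.59 ± 0.13 in controls without a call (adjusted p = 0.115). Xdh and the nitric oxide synthase gene Nos1 fell by 0.86 ± 0.19 and 0.82 ± 0.18 (adjusted p = 0.0160 and 0.0140). Blvrb rose by 2.06 ± 0.30 (adjusted p = 0.00238), from dim young signals of 32.3, 50.4 and 20.6 to 188, 238 and 306. Cbr1, Ephx1, an epoxide hydrolase, and Cyba, a subunit of NADPH oxidases, rose by 0.94 ± 0.16, 0.60 ± 0.15 and 0.68 ± 0.20 (adjusted p = 0.00460, 0.0235 and 0.0499). The call of Cyba held in 6 of 21 alternatives and that of Ephx1 in 16 of 21. Of the glucocorticoid list Sult1a1, a sulfotransferase, and Zbtb16 fell by 1.13 ± 0.22 and 1.35 ± 0.38 (adjusted p = 0.00904 and 0.0400), and the kinase gene Sgk1 rose by 0.96 ± 0.27 (adjusted p = 0.0380). The call of Zbtb16 held in 7 of 12 fits that left out an array and in 5 of 9 other alternatives. That of Sgk1 held in 7 of 12 and 6 of 9. With age control means went from 151 to 139 for Blvrb, 566 to 461 for Cbr1 and 934 to 1107 for Ephx1. Those of Cyba went from 1077 to 997 and those of Sgk1 from 1134 to 1305. In controls Mafg went from 472 to 400, Mtf1 from 246 to 208, Nos1 from 139 to 113 and Xdh from 860 to 982. Sult1a1 went from 751 to 758 and Zbtb16 from 409 to 496 there. For the difference of the genotype effect between ages 0 of the 101 genes were called, beside 6 higher and 8 lower of all 8852. By limma 11 (10.9%) had an unadjusted p below 0.05 for it, beside 12% of all genes. A change with age particular to mdx hearts was thus not shown for any of these genes. The comparison of age in mdx hearts shares its young arrays with the genotype comparison at 8 weeks. The values of any gene in both, such as the opposite ones of Cbr1 and Blvrb, are thus not independent.

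Among the lists with no call with age in mdx hearts, the genes of smallest p were Gpx4 (0.40 ± 0.22, adjusted p = 0.228), Gclc, the catalytic partner of Gclm (0.57 ± 0.20, adjusted p = 0.0833), and Gsta4 (0.42 ± 0.17, adjusted p = 0.110). In controls they were Gclm (-0.70 ± 0.23, adjusted p = 0.246), Gsto1 (0.44 ± 0.16, adjusted p = 0.306) and the zinc transporter gene Slc30a9 (0.30 ± 0.14, adjusted p = 0.393). The transferrin receptor gene Tfrc was at -0.66 ± 0.19, Maoa, a monoamine oxidase, at 0.25 ± 0.15 and Lcn2, also a granulocyte product, at -1.20 ± 0.29 (adjusted p = 0.214, 0.531 and 0.143).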

How the data were processed

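Total RNA of mouse heart was hybridised to 12 Affymetrix MOE430A arrays, 3 per group. The authors deposited 1 intensity per probe set and array, linear and with a trimmed mean of 1500.6 to 1500.9 on each array; the software that made these values is not given in the sources used here. Genes were named from the platform annotation, in which 20393 of 22690 probe sets have 1 gene, 691 several and 1606 none. Of those with 1 gene 20364 matched the current gene table.

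Each array was scaled to a 2% trimmed mean of 500, 32 was added, log2 was taken, and probe sets with a mean of at least 100 were kept (14932). A linear model with 4 group means was fitted in limma 3.58.1 (R 4.3.3) with moderated variances (8 residual and 5.2 prior degrees of freedom) and Benjamini-Hochberg adjustment over all probe sets kept, and p-values measure only the spread between these arrays. Contrasts set the genotypes against each other at either age, compared those effects, and set 10.5 months against 8 weeks within a genotype. The script was checked on simulated data. The number of arrays limits the precision.

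Every member probe set was named, with up to 3 called genes of each pathway list and comparison by smallest p, or the gene of smallest p where none was called. The 5 genes most like the member of widest range were also named. The members and lists were chosen with earlier results of these data known. Replicate numbers are shared between groups, but same-numbered arrays did not deviate together (correlations of -0.13 to 0.13), so they were not paired. Alternatives were an offset of 16 or 64, no filter or one of 200, quantile normalization, only the groups compared, a replicate block, the signal range as a block, array weights and leaving out each array.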

Additional observations from a re-analysis of the deposited data

How the results depend on the processing

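With 3 arrays a group, the counts of called probe sets moved more than the values of the members. At 8 weeks the 343 calls between genotypes became 23 with only the groups compared, 101 with the replicate block and 191 with array weights. At 10.5 months the 7 became 3 with the replicate block and 110.0 with array weights. The 23 calls of the difference between ages became 15 with an offset of 64, 3 with a filter of 200, 0 with the replicate block and 141 with array weights. With age in controls the 22 became 47 with an offset of 64, 41 with a filter of 200, 7 with only control arrays, 4 with the replicate block within genotype and 270.0 with array weights. With age in mdx hearts the 1706 became 565 with only mdx arrays. The 1 member called with age in controls became 0 with no filter, with only control arrays and with the replicate block within genotype (adjusted p = 0.126), which was chosen after seeing the data. The replicate numbers do not pair the arrays, so the block values describe the fit only.

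Leaving out 1 array gave 42 to 308 calls at 8 weeks, 1 to 12 at 10.5 months, 0 to 31 for the difference, 7 to 35 with age in controls and 598 to 1883 in mdx hearts. Of the members 0 to 1 were called with age in controls and 1 to 4 in mdx hearts, the 4 without mdx replicate 3 at 8 weeks.

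Values near 0 changed sign, and the cause was not tested. Between genotypes at 8 weeks, Sod1 1451124_at became -0.016 after quantile normalization and -0.0079 under a block for signal range, and Sod2 1448610_a_at became -0.13 and -0.072. At 10.5 months Sod2 1417193_at became -0.11 and -0.028, Mt1 1422557_s_at -0.093 and -0.10, and Sod1 1451124_at -0.021 under the latter. The difference between ages of Sod1 1451124_at became 0.10 after quantile normalization. With age in controls Sod2 1417193_at became 0.13 and 0.049, and Sod3 1417634_at -0.037 and -0.086. The block for signal range put Gpx3 at 0.027 and Hmox1 at -0.0072 there. With array weights Sod3 1417634_at became 0.077 at 10.5 months, 0.032 for the difference, -0.0038 with age in controls and 0.028 in mdx hearts, Gpx3 0.011 and Hmox1 -0.093 with age in controls, and Cat 1416430_at 0.024 with age in mdx hearts.

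Leaving out 1 array also turned values. At 8 weeks Sod2 1448610_a_at ran from -0.060 to 0.25, Sod3 1417633_at from -0.19 to 0.028, Sod3 1417634_at from -0.061 to 0.11 and Gpx1 from -0.36 to 0.027. At 10.5 months Sod1 1451124_at ran from -0.035 to 0.26, Sod3 1417634_at from -0.25 to 0.15, Mt1 from -0.14 to 0.16 and Hmox1 from -0.079 to 0.22. For the difference Sod1 1451124_at ran from -0.19 to 0.12, Sod2 1448610_a_at from -0.049 to 0.26, Sod3 1417634_at from -0.29 to 0.12 and Gpx3 from -0.22 to 0.040. With age in controls Sod2 1417193_at ran from -0.17 to 0.051, Sod3 1417634_at from -0.050 to 0.060, Gpx3 from -0.15 to 0.052 and Hmox1 from -0.42 to 0.58. With age in mdx hearts Sod3 1417634_at ran from -0.28 to 0.13, Cat 1416430_at from -0.14 to 0.12, Cat 1416429_a_at from -0.086 to 0.26 and Gpx1 from -0.046 to 0.34. Hmox1 left the fit with a filter of 200, as did Blvrb, so neither has a value there.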
